A study of Mus musculus with 18 samples.

Results

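Kinesins are described here as the genes whose symbol is Kif followed directly by a digit, with Kif3a and Kif3b left aside as a separate complex. The array carried 31 such genes among 19057 gene symbols, and 26 of them were measured among 12002 genes in all. The 31 genes were sorted by known role into 11 mitotic kinesins, 13 transport kinesins, 4 kinesins of the cilium and centriole, and 3 others. Kif18b, Kif2b and Kif2c of the mitotic class, Kif7 of the cilium class and Kif12 of the others were not measured, because no probe of theirs was detected on at least 2 arrays. A gene entered the fit through any arrays that detected it, so that Kif9 entered through HC arrays alone and Kif4 through NEC arrays alone, and the counts below are descriptions of the measured genes.

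RNA was measured on 18 Illumina BeadChip arrays from Atoh1/nGFP (C57BL/6) mice at postnatal day 1 (P1), in which Atoh1 sequences drive a nuclear green fluorescent protein (GFP). Every group carried this transgene and no other allele or treatment, and each sample pooled the inner ears of several pups. Flow cytometry gave hair cells (HC), which carried both GFP and CD326, a surface protein of epithelia; epithelial non-hair cells (ENHC), positive for CD326 alone; and non-epithelial cells (NEC), negative for both. Each population was sorted separately from cochleae and from vestibular organs, giving 6 groups of 3 arrays. The negative gate of NEC does not separate mesenchyme from neurons, glia, vessels and blood cells.

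Kinesins are motor proteins that spend ATP to move along microtubules. Mitotic kinesins build the spindle, align chromosomes and close the cleavage furrow, and their transcripts rise in dividing cells. Transport kinesins carry vesicles, mitochondria and synaptic precursors, and several of them are best known from axons and dendrites. A smaller set belongs to the cilium and its basal body. A hair cell at this age has left the cell cycle, releases transmitter at ribbon synapses and still bears a kinocilium, a true cilium beside its stereocilia.

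Arrays detected 16668 to 19564 probes each, and the closest array to each of the 18 belonged to its own group. All 8 hair cell markers examined were detected on every HC array. In ENHC and NEC of either organ 7 of the 8 were undetected on all 3 arrays. The remaining marker was Pvalb in the cochlea, detected on every cochlear NEC array, and Gfi1 in the vestibular system. The number of arrays limits the precision, and the p-values measure the spread between these pooled samples. Values are normalised log2 signals, a probe counts as detected at a detection p under 0.01, and a gene was called at an adjusted p under 0.05 in the limma fit over 12002 genes. Where no array of the lower group detected a probe, the fold is a bound, written as at least N-fold, set against the higher of the probe's own signal and the lowest signal detected on each array. Signals of different genes come from different probes and are not set against each other. A change may reflect fewer cells of a type or less RNA per cell, which cannot be told apart in sorted bulk samples.

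Promoter windows of 300 bases around the annotated start sites were searched on both strands for a pair of short motifs. GTTGCC is a part of the X-box, the element that RFX transcription factors bind in promoters of ciliary genes. The rest of that element was not searched for. TTTGAA is the cell cycle homology region found in promoters of mitotic genes. Sequences and coordinates are from RefSeq (GRCm38.p6), and 26 of the 31 kinesins had windows that were used, 30 in all, since some genes have several start sites. GTTGCC stood in 10 of these 30 windows, against 12.5% of all 32851 windows, and in at least 1 window of 9 of the 26 kinesins, against 14.1% of all 27025 genes. Of the 10 kinesins with a used window that were called higher in HC than in ENHC, 6 held it, in 7 of their 13 windows, and Kif27 was among those without it. TTTGAA stood in 10 of the 30 windows, against 17.9% of all windows, and in 10 of the 26 kinesins, against 20.2% of all genes. It stood in 8 of the 10 mitotic kinesins with a used window and in all 5 of the mitotic kinesins called lower in HC than in NEC. No site of either motif overlapped a site of the other. A match is a description of the letters and not evidence of binding.

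The 3 windows with GTTGCC shown here belong to the HC-high kinesins Kif9 (chr9:110476708-110477007, plus strand), Kif24 (chr4:41464799-41465098, minus strand) and Kif17 (chr4:138262001-138262300, plus strand), printed 5′ to 3′ with the motif, on either strand, in capitals. With the start site as position 1 and the base before it as -1, the motif began at position 10 in Kif9, at -6 in Kif24 and at -73 in Kif17. Kif9 has another annotated start site further downstream, from which the same motif begins at -27.
Kif9: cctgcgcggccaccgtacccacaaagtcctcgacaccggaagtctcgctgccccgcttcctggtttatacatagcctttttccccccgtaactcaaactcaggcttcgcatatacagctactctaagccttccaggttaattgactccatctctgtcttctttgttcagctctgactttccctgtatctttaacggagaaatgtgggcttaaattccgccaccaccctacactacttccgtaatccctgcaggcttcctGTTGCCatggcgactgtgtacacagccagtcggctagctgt
Kif24: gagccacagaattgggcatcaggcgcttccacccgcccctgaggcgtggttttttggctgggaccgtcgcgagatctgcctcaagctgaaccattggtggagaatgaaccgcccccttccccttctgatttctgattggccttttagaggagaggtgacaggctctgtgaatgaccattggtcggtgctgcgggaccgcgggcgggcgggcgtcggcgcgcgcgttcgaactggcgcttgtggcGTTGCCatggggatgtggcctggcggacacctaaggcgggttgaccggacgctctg
Kif17: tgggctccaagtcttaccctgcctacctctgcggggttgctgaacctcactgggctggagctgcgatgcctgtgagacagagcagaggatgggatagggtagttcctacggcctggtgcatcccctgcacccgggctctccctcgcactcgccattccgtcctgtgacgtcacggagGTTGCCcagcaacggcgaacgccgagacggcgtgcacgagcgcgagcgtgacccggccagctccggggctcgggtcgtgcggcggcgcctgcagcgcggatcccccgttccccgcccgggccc

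Windows with TTTGAA are shown for the 4 mitotic kinesins with the largest fitted difference between HC and NEC: Kif22 (chr7:127042371-127042670, minus strand), Kif15 (chr9:122950831-122951130, plus strand), Kif4 (chrX:100625815-100626114, plus strand) and Kif20b (chr19:34922108-34922407, plus strand), again with the motif on either strand in capitals. One site began at -17 in Kif22, at -19 in Kif15, at position 8 in Kif20b and at position 20 in Kif4. Kif22, Kif15 and Kif20b each held 2 sites.
Kif22: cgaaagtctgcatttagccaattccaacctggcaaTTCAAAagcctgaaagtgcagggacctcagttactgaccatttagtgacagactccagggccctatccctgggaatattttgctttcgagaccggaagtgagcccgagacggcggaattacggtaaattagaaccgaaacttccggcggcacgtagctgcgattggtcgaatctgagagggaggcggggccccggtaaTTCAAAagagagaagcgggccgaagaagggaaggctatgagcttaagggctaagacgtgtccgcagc
Kif15: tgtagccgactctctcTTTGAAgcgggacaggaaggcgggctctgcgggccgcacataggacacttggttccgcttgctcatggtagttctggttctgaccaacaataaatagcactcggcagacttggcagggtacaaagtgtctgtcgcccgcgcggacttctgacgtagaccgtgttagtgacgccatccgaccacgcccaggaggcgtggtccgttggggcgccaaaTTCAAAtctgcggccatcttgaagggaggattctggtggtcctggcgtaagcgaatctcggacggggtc
Kif4: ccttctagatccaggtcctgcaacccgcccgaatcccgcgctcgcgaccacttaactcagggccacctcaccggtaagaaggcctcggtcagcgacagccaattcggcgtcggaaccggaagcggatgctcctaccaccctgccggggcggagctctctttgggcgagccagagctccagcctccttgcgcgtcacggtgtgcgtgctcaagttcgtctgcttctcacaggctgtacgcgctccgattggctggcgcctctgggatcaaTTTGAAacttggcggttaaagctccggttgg
Kif20b: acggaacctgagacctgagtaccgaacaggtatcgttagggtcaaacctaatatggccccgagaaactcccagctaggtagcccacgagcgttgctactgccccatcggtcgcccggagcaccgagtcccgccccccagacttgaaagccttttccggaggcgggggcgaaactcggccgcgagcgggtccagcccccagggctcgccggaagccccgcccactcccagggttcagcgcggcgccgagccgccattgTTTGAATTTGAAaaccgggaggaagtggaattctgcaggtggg

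The comparison of HC with ENHC asked which motors set the sensory cell apart from the epithelium around it. Of 26 kinesins measured, 13 were higher and 3 lower in HC over both organs (limma, adjusted p under 0.05), where 47.3% of all genes were called, 22.2% higher and 25.1% lower. All 3 cilium kinesins and 9 of 13 transport kinesins were among those that rose. Of 8 mitotic kinesins, 2 fell and none rose. The median log2 difference over the measured kinesins was 0.49, or 0.29 with genes undetected on 1 side placed at their bound, against -0.03 over all genes.

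**Figure D1:**
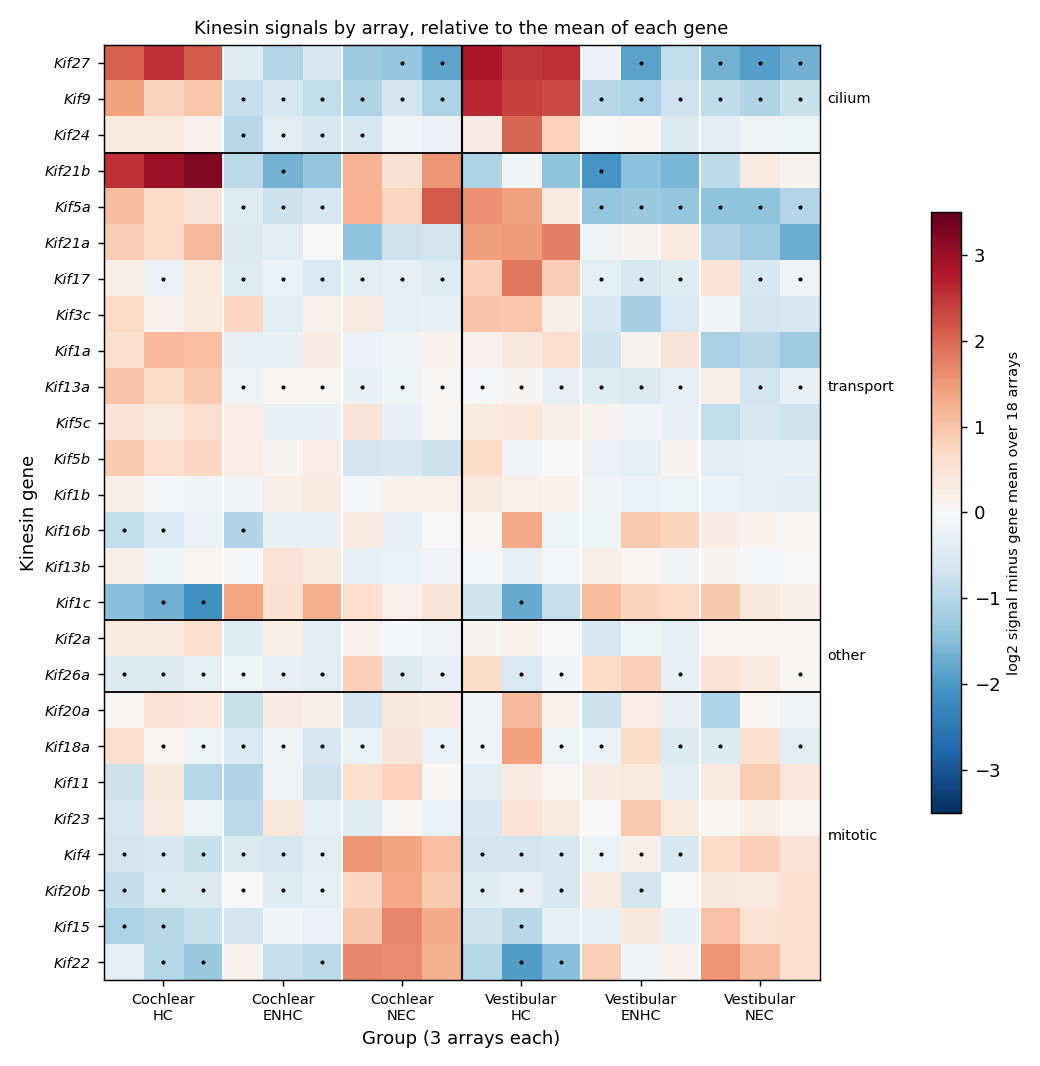
Normalised log2 signal of the 26 measured kinesins (rows, by class) on the 18 arrays (columns, 3 for each group), minus the mean of each gene. A black dot marks an array on which the probe was not detected. Kif27 and Kif9 were high on all 6 HC arrays, Kif21b on the 3 cochlear HC arrays, and Kif22, Kif15, Kif20b and Kif4 on the 6 NEC arrays.

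Among the cilium kinesins, Kif9, which works in the central apparatus of motile cilia, passed detection on the 6 HC arrays and on no array of ENHC or NEC. Its signals were 7.27, 6.60 and 6.81 in cochlear HC, against 5.01, 5.22 and 4.97 in cochlear ENHC. In vestibular HC they were 8.50, 8.21 and 8.13, against 4.86, 4.71 and 5.11 in vestibular ENHC. The HC values did not overlap those of either other population, and Kif9 was at least 4.47-fold higher in HC than in ENHC (limma, adjusted p = 3.11e-11) and at least 4.81-fold higher than in NEC (limma, adjusted p = 9.3e-12). A second Kif9 probe moved the same way, with a log2 difference of 1.67 ± 0.14 to ENHC.

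Kif27, a kinesin of motile cilia related to Kif7, gave 8.75, 9.22 and 8.77 in cochlear HC, against 6.21, 5.62 and 6.09 in cochlear ENHC. In vestibular HC it gave 9.49, 9.17 and 9.23, against 6.45, 4.77 and 5.81 in vestibular ENHC, where the middle value was not detected. All HC arrays lay above all ENHC arrays. The log2 difference was 3.28 ± 0.22 (SE, n = 6 arrays each), or 9.72-fold (limma, adjusted p = 4.56e-10). Against NEC, of which 1 array detected it, the difference was 4.07 ± 0.22 (limma, adjusted p = 1.03e-11). Kif27 was also higher in ENHC than in NEC, by 0.79 ± 0.22 (limma, adjusted p = 0.00814).

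Kif24, which acts at the mother centriole where it restrains cilium formation, had 6.21, 6.22 and 6.02 in cochlear HC, against 4.90, 5.48 and 5.29, all undetected, in cochlear ENHC. In vestibular HC it had 6.15, 7.90 and 6.65, against 5.84, 5.91 and 5.34 in vestibular ENHC. The HC arrays lay above the ENHC arrays in both organs, with the second vestibular HC array far above its companions. Replicate 2 gave the highest Kif24 signal in all 6 groups. Over both organs the log2 difference was 1.06 ± 0.22 (limma, adjusted p = 0.00065). In the cochlea alone it was at least 1.59-fold (limma, adjusted p = 0.0284), and this call was lost without cochlear HC replicate 1 or 2 or cochlear ENHC replicate 1 or 3 (adjusted p 0.0566 to 0.117). It was also lost without background correction (0.136), with an offset of 50 (0.08) and with no detection filter (0.0571), and the vestibular call in a fit of the compared arrays alone (0.0721).

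**Figure D2:**
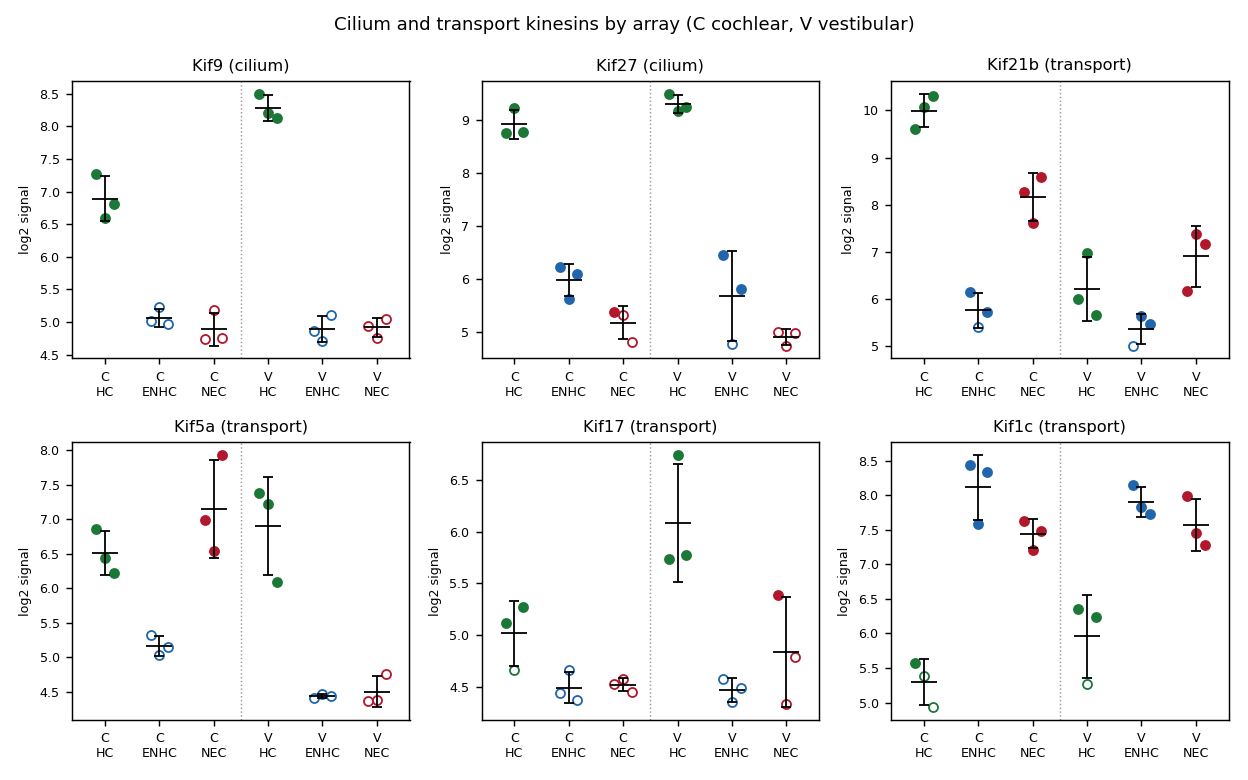
Normalised log2 signal (vertical axis) of 2 cilium and 4 transport kinesins in each group (horizontal axis, C cochlear and V vestibular), with 1 point for each array, filled where detected and open where not. Bars give the mean ± SD (n = 3 arrays). Kif9 was detected on HC arrays alone, Kif21b reached 9.61 to 10.31 in cochlear HC, and Kif1c was lowest in HC of both organs.

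The transport class had a median log2 difference of 0.59 (0.43 with bounds) from ENHC. Kif21b, a dendritic and axonal motor that also restrains microtubule growth, gave 9.61, 10.07 and 10.31 in cochlear HC. The 3 cochlear ENHC arrays gave 6.14, 5.40 and 5.71, and the second was not detected. The difference of 4.25 ± 0.36, or 19.0-fold, was called (limma, adjusted p = 2.57e-08).
In vestibular HC the same probe gave 5.99, 6.97 and 5.66, against 5.0, 5.62 and 5.45 in vestibular ENHC. All 3 HC arrays were above the ENHC arrays, but the difference of 0.85 ± 0.36 was not called (limma, adjusted p = 0.0793). It passed with median scaling (adjusted p = 0.045) and without vestibular HC replicate 3 (adjusted p = 0.0314).

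Its relative Kif21a was higher in both organs. It gave 8.85, 8.68 and 9.12 in cochlear HC, against 7.50, 7.60 and 7.99 in cochlear ENHC. It gave 9.46, 9.49 and 9.75 in vestibular HC, against 7.82, 8.09 and 8.36 in vestibular ENHC. No HC array overlapped an ENHC array, and the difference over both organs was 1.33 ± 0.17, or 2.52-fold (limma, adjusted p = 2.4e-06). The difference from NEC was larger, 2.37 ± 0.17 (limma, adjusted p = 6.16e-10), and ENHC stood above NEC by 1.04 ± 0.17 (limma, adjusted p = 6.14e-05).

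The conventional kinesin heavy chains Kif5a, Kif5b and Kif5c, which pull vesicles and mitochondria along axons, were each higher in HC than in ENHC. Kif5a, the form known mainly from neurons, gave 6.86, 6.44 and 6.23 in cochlear HC and 7.38, 7.23 and 6.09 in vestibular HC. None of the 6 ENHC arrays detected it, and HC stood at least 2.43-fold higher (limma, adjusted p = 1.49e-06). Kif5c differed by 0.50 ± 0.14 (adjusted p = 0.00853, and 0.113 with median scaling) and the ubiquitous Kif5b by 0.43 ± 0.14 (limma, adjusted p = 0.0145), and in both genes the groups overlapped.
In the cochlea alone, Kif5b (0.54 ± 0.19) and Kif5c (0.57 ± 0.20) were also called, at limma adjusted p values of 0.0338 and 0.035. The call of Kif5b was lost without any 1 of 5 of the 6 cochlear HC and ENHC arrays, all but HC replicate 2 (adjusted p 0.0569 to 0.111). That of Kif5c was lost without HC replicate 1 or 3 or ENHC replicate 2 or 3 (adjusted p 0.0694 to 0.132). With median scaling their adjusted p values were 0.0808 and 0.349. Of the 2 other kept Kif5b probes neither was called against ENHC, at 0.43 ± 0.18 and -0.22 ± 0.19.

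Kif17, a motor of dendrites that also enters cilia, was detected on 5 of 6 HC arrays and no ENHC array. It gave 5.73, 6.74 and 5.77 in vestibular HC, against 4.57, 4.35 and 4.49 in vestibular ENHC, at least 1.64-fold higher (limma, adjusted p = 0.000114). In cochlear HC it gave 5.12, 4.66 and 5.27, against 4.44, 4.66 and 4.37 in cochlear ENHC. These cochlear values overlapped, and the cochlear difference did not pass the test. Over both organs the bound was 1.09-fold (limma, adjusted p = 0.000136).

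Kif3c, which can pair with Kif3a, was higher in HC over both organs by 0.85 (limma, adjusted p = 0.00216). Of its 3 kept probes, 2 were called higher there. By organ it was called in the vestibular system. There HC gave 7.79, 7.78 and 7.03, against 6.24, 5.64 and 6.26 in ENHC, a difference of 1.49 ± 0.29 (limma, adjusted p = 0.000545). Cochlear HC gave 7.49, 6.93 and 7.16, against 7.52, 6.41 and 6.98 in cochlear ENHC, and these overlapped. The test of the difference between the organs gave -1.27 ± 0.42 (limma, adjusted p = 0.0599). It passed with replicate numbers as a block (0.00861), and when vestibular HC replicate 3 (0.023), cochlear ENHC replicate 2 (0.0186) or cochlear HC replicate 1 (0.0488) was left out.

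Kif1a, which carries synaptic vesicle precursors, gave 9.91, 10.47 and 10.41 in cochlear HC, against 9.05, 9.08 and 9.62 in cochlear ENHC. The cochlear difference of 1.01 ± 0.26 was called (limma, adjusted p = 0.00405), and over both organs it was 0.73 ± 0.18 (limma, adjusted p = 0.00267). Kif13a, an endosomal motor, was detected on the 3 cochlear HC arrays, at 6.19, 5.85 and 6.11, and on no ENHC array. It was at least 1.48-fold higher in cochlear HC than in cochlear ENHC (limma, adjusted p = 0.00175).

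Markers of neurons moved with these genes. Of 9 neuron markers measured, 5 were higher and 1 was lower in HC than in ENHC over both organs. Over all genes 22.2% were higher and 25.1% lower. Their summed signal was 3256 to 3715 in cochlear HC and 3500 to 4328 in vestibular HC, against 1483 to 1900 in cochlear ENHC and 647.7 to 916.3 in vestibular ENHC. In HC of each organ 7 of the 9 were detected on all arrays, and the other 2, Tubb3 and Stmn2, on none. The part of neuronal RNA in the kinesin differences was not tested.

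Kif1c, a motor of vesicles and the Golgi apparatus, was the 1 transport kinesin that fell. It gave 5.57, 5.38 and 4.93 in cochlear HC, against 8.43, 7.58 and 8.33 in cochlear ENHC. It gave 6.36, 5.27 and 6.24 in vestibular HC, against 8.14, 7.83 and 7.73 in vestibular ENHC. All HC arrays lay below all ENHC and NEC arrays, 3 of the 6 HC arrays did not detect it, and the log2 difference from ENHC was -2.38 ± 0.21 (limma, adjusted p = 1.98e-08). The difference from NEC was -1.88 ± 0.21 (limma, adjusted p = 2.82e-07). A second kept Kif1c probe, of another transcript record, gave 0.19 ± 0.32 against ENHC and was not called, so the fall rests on 1 probe.

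Kif1b, a carrier of mitochondria and synaptic vesicle precursors, was not called between HC and ENHC (0.13 ± 0.12, limma, adjusted p = 0.376), and lay between 9.54 and 10.28 on all arrays. Kif13b, at 7.34 to 8.19, and Kif16b, a motor of early endosomes at 4.86 to 7.26, were not called either (-0.20 ± 0.12 and -0.06 ± 0.25, limma, adjusted p = 0.199 and 0.873). Kif1b has alternative transcripts, and its 8 kept probes did not move together. The probe used gave no call, while 2 others fell in HC against ENHC, by -0.95 ± 0.28 and -0.68 ± 0.23 (limma over 24352 probes, adjusted p = 0.00917 and 0.025). In the vestibular system alone another 2 probes were higher in HC, by 0.92 ± 0.30 and 0.85 ± 0.26 (limma over probes, adjusted p = 0.0263 and 0.0169). Against NEC the pair that fell over both organs differed by -1.63 ± 0.28 and -1.11 ± 0.23, and another rose by 0.71 ± 0.18 (limma over probes, adjusted p = 0.00282).

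Outside these classes, Kif2a, which takes microtubules apart at their ends, was higher in HC than in ENHC by 0.54 ± 0.13 (limma, adjusted p = 0.00212), and its other 2 kept probes were called the same way. In the cochlea alone it was higher by 0.63 ± 0.18 (limma, adjusted p = 0.0117), a call lost without HC replicate 3 or ENHC replicate 1 or 3 (adjusted p 0.0581 to 0.0676), and in a fit of the compared arrays alone (0.0551). Kif26a, an unusual kinesin without motor activity, lay between 4.41 and 5.79 and was detected on 6 of 18 arrays, and its difference of -0.28 ± 0.24 was not called.

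**Figure D3:**
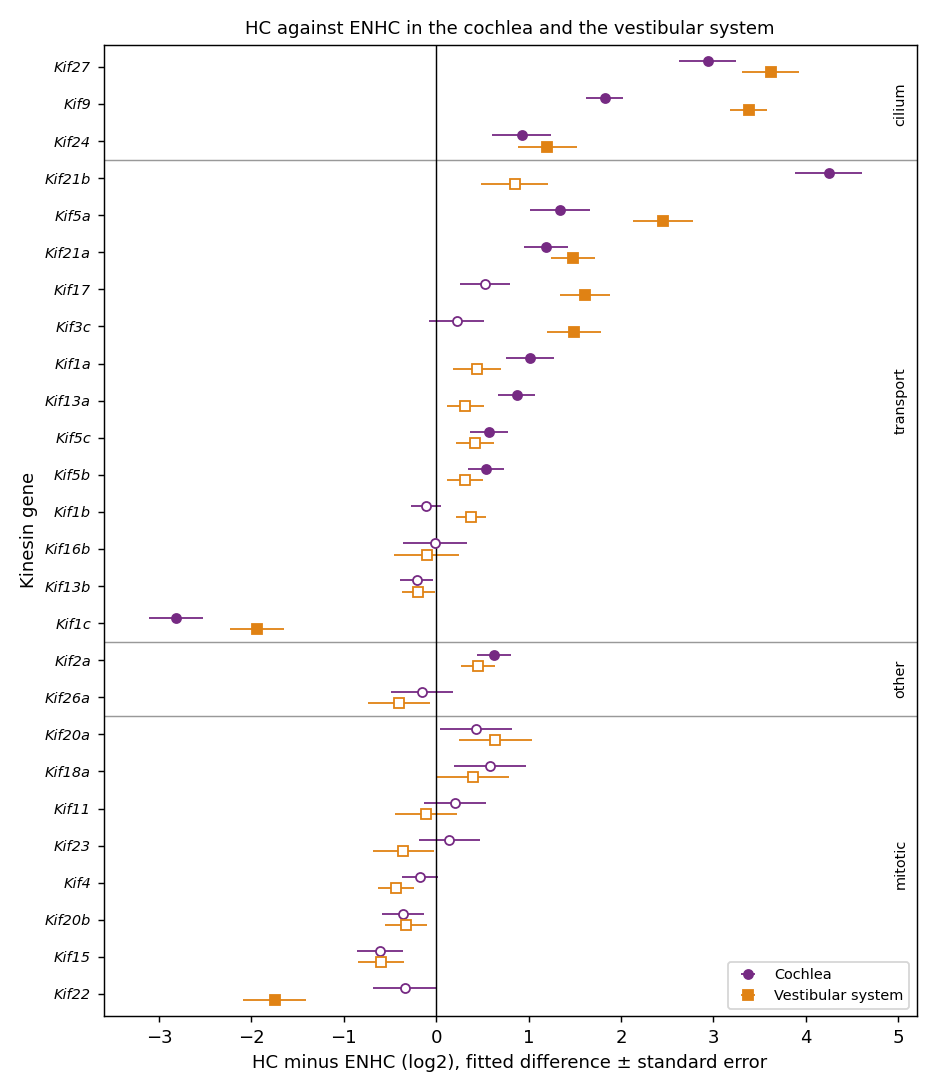
Fitted log2 difference of HC minus ENHC (horizontal axis, ± SE) for the 26 measured kinesins (vertical axis, by class) in the cochlea (circles) and the vestibular system (squares), filled where the adjusted p was under 0.05. Kif21b stood apart in the cochlea at 4.25, Kif9 at 3.39 and Kif27 at 3.62 in the vestibular system, and Kif1c was negative in both. Differences of genes undetected in ENHC are fitted values, which depend on the offset.

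By organ, 12 of 26 kinesins were called between cochlear HC and cochlear ENHC, 11 higher and 1 lower, where 36.5% of all genes were called. In the vestibular system 9 were called, 7 higher and 2 lower, where 34.8% of all genes were called. With median scaling 60.5% of the genes called in the vestibular comparison were higher in HC, against 48.8% in the main fit. The median of all genes in that comparison moved to 0.13, against -0.03. With that scaling 10 kinesins were higher and 2 lower there, Kif1a, Kif21b and Kif2a being added (adjusted p 0.0378 to 0.045).

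A test of the difference between these differences called Kif21b and Kif9, where 10.8% of all genes were called, 4.52% with a higher and 6.31% with a lower value in the cochlea. The HC to ENHC difference of Kif21b was larger in the cochlea by 3.40 ± 0.51 (limma, adjusted p = 0.000155). The same test gave -1.56 ± 0.28 for Kif9, a smaller difference in the cochlea (limma, adjusted p = 0.000992). This is a fitted value, since no ENHC array detected Kif9, and the other Kif9 probe was not called in it (-0.59 ± 0.28, limma over probes, adjusted p = 0.254). Comparing HC directly, Kif21b was higher in cochlear than in vestibular HC by 3.79 ± 0.36, or 13.9-fold (limma, adjusted p = 5.06e-07), and Kif9 was lower by -1.39 ± 0.20 (limma, adjusted p = 6.74e-05).

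Kif13a was at least 1.71-fold higher in cochlear than in vestibular HC (limma, adjusted p = 0.0023), and Kif17 lower by -1.07 ± 0.27 (limma, adjusted p = 0.0106). The Kif17 call was lost without replicate 2 of cochlear or of vestibular HC (adjusted p 0.0637 to 0.0652) and in a fit of the HC arrays alone (0.0943). These 4 kinesins were all that were called between HC of the organs, where 14.3% of all genes were called. Kif5b and Kif21a were not called (limma, adjusted p = 0.0513 and 0.0656). Both passed without background correction (0.0395 and 0.0145) and with an offset of 50 (0.0396 and 0.0281), Kif5b higher and Kif21a lower in cochlear HC.

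Mitotic kinesins were lower in both epithelial populations than in NEC for most of the genes measured. Against NEC, 5 of 8 fell in HC and none rose, where 57.5% of all genes were called and 29.3% were lower. The 5 genes, Kif22, Kif15, Kif4, Kif20b and Kif11, were also lower in ENHC than in NEC, where 32.5% of all genes were called. Kif22 fell there by -1.44 ± 0.24, Kif15 by -1.21 ± 0.18, Kif20b by -0.90 ± 0.16 and Kif11 by -0.81 ± 0.24 (limma, adjusted p 9.93e-05, 2.15e-05, 0.000167 and 0.0134), and Kif4 at least 1.57-fold. The class had a median log2 difference from NEC of -1.0 (-0.77 with bounds) in HC and -0.85 (-0.73 with bounds) in ENHC.

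Kif22, which binds chromosome arms and pushes them to the spindle equator, gave 6.08, 5.44 and 5.15 in cochlear HC, 6.55, 5.64 and 5.51 in cochlear ENHC and 8.13, 8.10 and 7.69 in cochlear NEC. In the vestibular system it gave 5.43, 4.49 and 4.97 in HC, 7.28, 6.28 and 6.57 in ENHC and 7.97, 7.55 and 7.0 in NEC. HC and NEC did not overlap, and HC was below ENHC on every array of the vestibular system but not of the cochlea. The log2 difference of HC was -2.48 ± 0.24 from NEC (limma, adjusted p = 5.52e-08) and -1.04 ± 0.24 from ENHC (limma, adjusted p = 0.00147). In the vestibular system alone HC was below ENHC by -1.75 ± 0.34 (limma, adjusted p = 0.000513). The difference between the organs, 1.41 ± 0.48, did not pass (adjusted p = 0.0758), and passed with replicate numbers as a block (0.00267) and without cochlear ENHC replicate 1 (0.0255) or vestibular HC replicate 1 (0.0451).

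Kif15, which works beside Kif11 in spindle assembly, gave 5.06, 5.22 and 5.41 in cochlear HC, 5.50, 6.05 and 5.95 in cochlear ENHC and 7.11, 7.89 and 7.46 in cochlear NEC. Vestibular HC gave 5.49, 5.21 and 5.85, vestibular ENHC 5.85, 6.56 and 5.93, and vestibular NEC 7.19, 6.68 and 6.72. NEC stood above both other populations on every array. HC differed from NEC by -1.81 ± 0.18 (limma, adjusted p = 5.87e-08) and from ENHC by -0.60 ± 0.18 (limma, adjusted p = 0.00897), but a second Kif15 probe was not called against ENHC over both organs (-0.04 ± 0.17, limma over probes, adjusted p = 0.87). That probe was lower in vestibular HC than in vestibular ENHC by -0.69 ± 0.24 (limma over probes, adjusted p = 0.0364), its cochlear difference was 0.61 ± 0.24 (adjusted p = 0.0641), and the difference between the organs was called at 1.30 ± 0.34 (adjusted p = 0.0203).

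Kif4, a chromosome-bound motor, was detected on the 6 NEC arrays, at 6.62, 6.49 and 6.11 in the cochlea and 5.75, 5.91 and 5.58 in the vestibular system, and on no other array. It was at least 1.75-fold lower in HC than in NEC (limma, adjusted p = 5.53e-09). Kif20b, needed late in cytokinesis, was undetected on all HC arrays and detected on 2 of 6 ENHC and all NEC arrays, and was at least 1.72-fold lower in HC than in NEC (limma, adjusted p = 2.1e-06). Kif11, which pushes the spindle poles apart, was detected on all 18 arrays and differed by -0.76 ± 0.24 between HC and NEC (limma, adjusted p = 0.0112), with overlap.

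**Figure D4:**
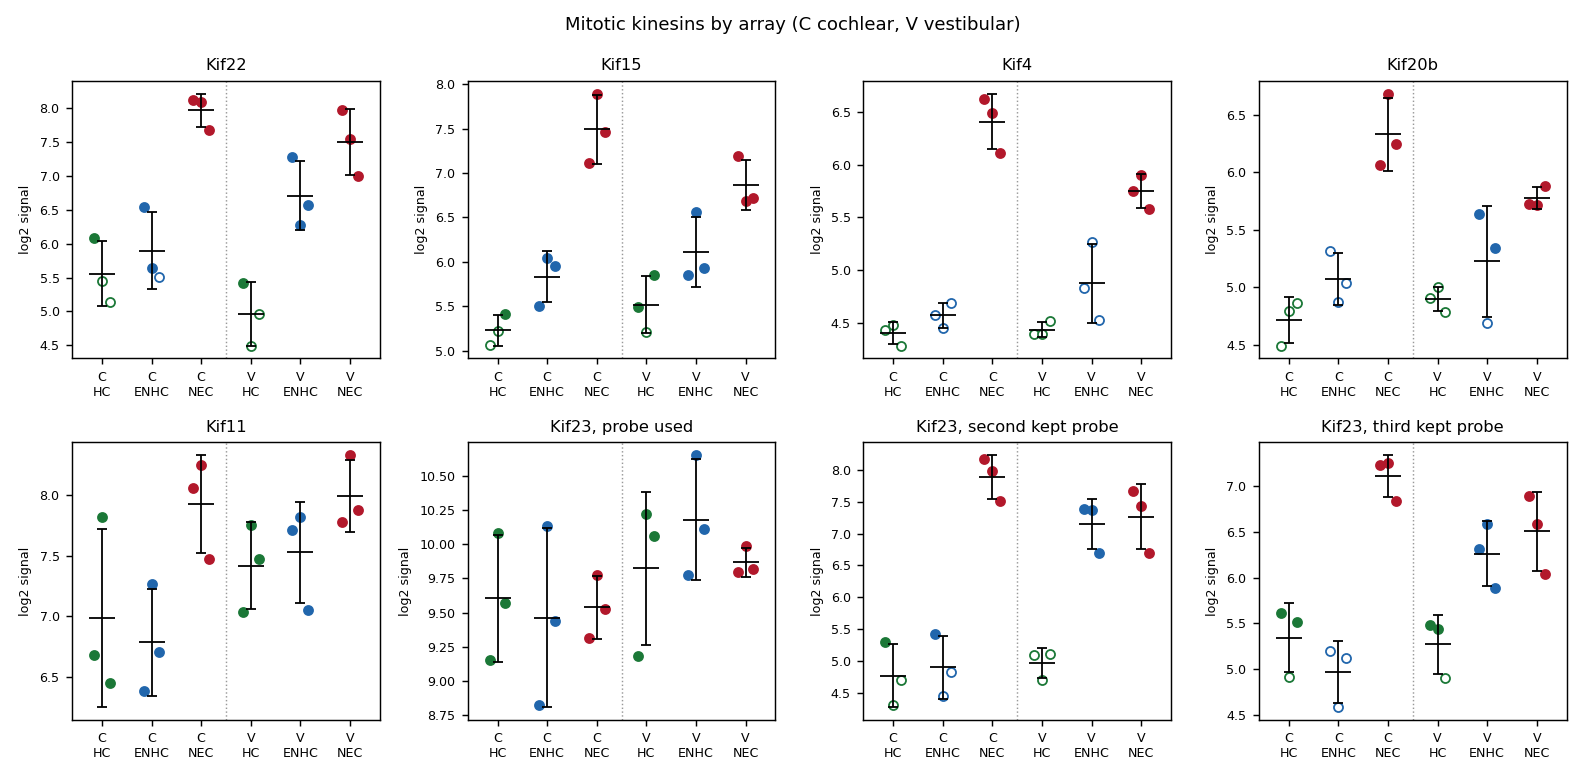
Normalised log2 signal (vertical axis) of mitotic kinesins in each group (horizontal axis, C cochlear and V vestibular), with 1 point for each array, filled where detected and open where not, and the mean ± SD (n = 3 arrays). Kif4 was detected on NEC arrays alone. The probe used for Kif23 lay between 8.82 and 10.65 on all arrays, while its other kept probes were high in NEC and in vestibular ENHC.

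Kif23, Kif20a and Kif18a did not follow this pattern. Kif23 and Kif20a act at the midbody in cytokinesis, and Kif18a aligns chromosomes. The probe used for Kif23 lay between 8.82 and 10.65 on all arrays and differed by 0.01 ± 0.23 between HC and NEC. Its 2 other kept probes, designed to another transcript record, fell in HC against NEC by -2.71 ± 0.22 and -1.50 ± 0.19 (limma over 24352 probes, adjusted p = 5.49e-09 and 2.06e-06). In the vestibular system they were also lower in HC than in ENHC, by -2.19 ± 0.31 and -0.99 ± 0.27 (limma over probes, adjusted p = 2.39e-05 and 0.00862). The larger of these is a fitted value that depends on the offset, since no vestibular HC array detected that probe. In the cochlea the same differences were -0.13 ± 0.31 and 0.38 ± 0.27 and were not called. The difference between the organs was called for both probes (2.05 ± 0.44 and 1.37 ± 0.38, limma over probes, adjusted p = 0.0049 and 0.03), the first again as a fitted value.

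The first of these Kif23 probes gave 5.10, 4.70 and 5.10 in vestibular HC, undetected on each array. It gave 7.38, 7.38 and 6.70 in vestibular ENHC and 7.67, 7.44 and 6.69 in vestibular NEC. In the cochlea it gave 5.29, 4.31 and 4.70 in HC, 5.43, 4.45 and 4.82 in ENHC and 8.18, 7.98 and 7.51 in NEC. Of cochlear HC and ENHC only replicate 1 of each detected it. Vestibular ENHC thus overlapped vestibular NEC, and cochlear ENHC overlapped cochlear HC.

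Kif18a was detected on 5 of 18 arrays, at 4.50 to 6.48 over all, and was not called against ENHC or NEC. Kif20a was detected on all arrays, at 6.44 to 8.63, and was 0.54 ± 0.28 higher in HC than in ENHC, which did not pass (limma, adjusted p = 0.124). Replicate 1 was the lowest and replicate 2 the highest of the 3 arrays in all 6 groups for Kif20a, and likewise for the probe used for Kif23. Replicate 2 was also the highest in all 6 groups for Kif11 and Kif24, and replicate 1 for Kif22 and Kif1c. With replicate numbers as a block Kif20a was called higher in HC than in ENHC (adjusted p = 0.00341), as was Kif18a (adjusted p = 0.0393, against 0.158 without the block). With median scaling Kif20a was also called higher in HC than in ENHC (adjusted p = 0.0182) and than in NEC (0.0186).

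Other mitosis genes moved with the mitotic kinesins. Of 19 measured, 18 were lower in HC than in NEC, where 29.3% of all genes were lower. In ENHC 18 were lower than in NEC, where 16.4% of all genes were lower. Their summed signal was 930.5 to 1195 in cochlear HC, 957.6 to 1119 in cochlear ENHC and 2386 to 3141 in cochlear NEC. In the vestibular system it was 974 to 1099 in HC, 1235 to 1580 in ENHC and 1913 to 2679 in NEC. The sums of HC and ENHC overlapped in the cochlea and not in the vestibular system. The summed signal of 8 mesenchyme markers was 563.3 to 787.8 in cochlear and 1131 to 1658 in vestibular ENHC. It was 894.6 to 946.1 in cochlear and 623.2 to 714.4 in vestibular HC. In NEC it was 9088 to 9729 in the cochlea and 12440 to 12830 in the vestibular system. The part of mesenchymal RNA in the ENHC signals was not tested. Between HC and ENHC 7 mitosis genes were lower and 1 was higher, where 25.1% of all genes were lower and 22.2% higher. Among those with the largest differences, Cdc20, an activator of the anaphase-promoting complex, was at least 1.39-fold lower. The others were Prc1 and Plk1, a midzone protein and a mitotic kinase, at -0.84 ± 0.21 and 0.84 ± 0.27.

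Between ENHC and NEC 11 of the 26 kinesins were called, 4 higher and 7 lower, where 16.1% of all genes were higher and 16.4% lower. Besides the 5 mitotic genes, Kif21b was lower in ENHC by -1.97 ± 0.26 (limma, adjusted p = 4.66e-06) and Kif5a at least 1.32-fold lower (limma, adjusted p = 0.00163). Higher in ENHC were Kif21a, Kif27, Kif5b (0.52 ± 0.14, adjusted p = 0.00515, and 0.0785 with median scaling) and Kif1a (0.52 ± 0.18, adjusted p = 0.0335). The Kif1a call was lost without any 1 of 7 arrays, cochlear ENHC replicate 3, cochlear NEC replicate 1 or 2, vestibular ENHC replicate 2 or 3 and vestibular NEC replicate 1 or 3 (limma, adjusted p 0.056 to 0.103). Kif1c, 0.50 ± 0.21 higher in ENHC, was not called (adjusted p = 0.0754), and passed with replicate numbers as a block (0.0191), without background correction (0.0304), and without cochlear ENHC replicate 2, vestibular HC replicate 2 or vestibular NEC replicate 1.

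Between HC and NEC 17 kinesins were called, 11 higher and 6 lower in HC, where 28.3% of all genes were higher, with all 3 cilium kinesins and 8 transport kinesins among the higher. Kif21b was not among them, at 0.58 ± 0.26 (limma, adjusted p = 0.0631), and the 3 cochlear NEC arrays gave 8.27, 7.60 and 8.59. It passed with median scaling (0.0219), without background correction (0.00351) and on leaving out cochlear HC replicate 1, cochlear NEC replicate 3, vestibular HC replicate 3 or vestibular NEC replicate 2 (0.0265 to 0.0428). Kif5a was higher by 0.88 ± 0.23 (limma, adjusted p = 0.00321), with cochlear NEC overlapping HC and vestibular NEC undetected on all 3 arrays. Kif1a was higher by 1.25 ± 0.18 and Kif5b by 0.95 ± 0.14, with no overlap (limma, adjusted p = 9.23e-06 and 7.51e-06). Kif17, Kif3c, Kif5c and Kif13a rose by 0.87, 0.83, 0.74 and 0.57 with overlap, and Kif24 by 0.94 ± 0.22 without it (limma, adjusted p = 0.00151).

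NEC of the organs differed in 4 transport kinesins, all higher in the cochlea, where 6.18% of all genes were called, 2.86% higher and 3.32% lower. Kif5a gave 7.0, 6.54 and 7.93 in cochlear NEC and was undetected on the 3 vestibular NEC arrays, at least 3.57-fold (limma, adjusted p = 3.22e-05). Kif1a gave 9.14, 9.21 and 9.49 in cochlear NEC, against 8.21, 8.37 and 8.09 in vestibular NEC, a difference of 1.06 ± 0.26 (limma, adjusted p = 0.0156). Kif21b differed by 1.26 ± 0.36 and Kif5c by 0.80 ± 0.20 (limma, adjusted p = 0.0444 and 0.0223, the second 0.173 with median scaling).
Neuron markers moved the same way. Of 9 measured, 8 were higher in cochlear than in vestibular NEC, none were undetected on all cochlear NEC arrays and 8 were undetected on all vestibular NEC arrays. Their summed signal was 1221 to 2522 in cochlear NEC, against 441.8 to 484.3 in vestibular NEC, and their part in the kinesin differences was not tested. Calls of Kif1a were lost without cochlear or vestibular NEC replicate 3 (adjusted p 0.0649 to 0.0866), and those of Kif5c without replicate 1 or 3 of either NEC group (0.0641 to 0.134). The Kif21b call was lost without any 1 of 9 arrays (0.0515 to 0.242), including replicates 1 and 3 of both NEC groups, cochlear HC replicates 2 and 3, vestibular HC replicate 1 and replicate 3 of both ENHC groups. Without vestibular NEC replicate 3, Kif5a alone was called.

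Between cochlear and vestibular ENHC limma called 0 of 26 kinesins, where 11.0% of all genes were called, 5.47% higher and 5.56% lower. At an unadjusted p under 0.05 there were 6, Kif11, Kif16b, Kif22, Kif23, Kif3c and Kif5a. With replicate numbers as a block Kif3c was higher in cochlear ENHC (0.92, adjusted p = 0.00677), and Kif11, Kif16b, Kif22 and Kif23 were lower (-0.72 to -1.05, adjusted p 0.0112 to 0.0414). The count was 1 without cochlear ENHC replicate 2, cochlear NEC replicate 1, vestibular ENHC replicate 1 or vestibular NEC replicate 1, and 2 without vestibular HC replicate 2 or 3. Over the 6 groups together, a moderated F test called 20 of 26 kinesins, where 62.7% of all genes were called, leaving Kif13b, Kif18a, Kif1b, Kif20a, Kif23 and Kif26a.

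A further list of 27 measured genes held partners of these motors and of dynein, the motor that runs towards the minus ends of microtubules. It also held the motors Kif3a, Kif3b, Kifc2 and Kifc3 and subunits of dynein itself. Of the 27, 12 were higher and 4 lower in HC than in ENHC, where 22.2% of all genes were higher and 25.1% lower. The median log2 difference of the list was 0.31, against -0.03 over all genes. Madd, an adaptor of Kif1a and Kif1b, was higher by 2.56 ± 0.18 (limma, adjusted p = 1.18e-09). Mapk8ip2, a scaffold that binds kinesin light chains, was at least 2.66-fold higher (limma, adjusted p = 3.81e-09). Dctn1, a subunit of the dynein activator dynactin, was higher by 1.25 ± 0.16 (limma, adjusted p = 3.39e-06) with overlapping groups, and no cochlear ENHC array detected it. It was at least 3.69-fold higher in cochlear HC than in cochlear ENHC (limma, adjusted p = 9.1e-08), and differed by 0.05 ± 0.23 in the vestibular system (limma, adjusted p = 0.894). Nde1, a dynein regulator needed in dividing progenitors, was lower by -1.24 ± 0.16 (limma, adjusted p = 2.49e-06).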

How the data were processed

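RNA from 18 sorted samples was pre-amplified (NuGEN Ovation V2) and hybridised to Illumina MouseRef-6 v2.0 arrays. The deposited tables held a probe intensity, as summarised by the authors in Bead-Studio, and a detection p-value deposited for each probe and array. A value table, which the authors deposited with the series, gave the quantile-normalised intensity of the same arrays, matched within 0.29%.

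Intensities were background-corrected by normexp from the detection p-values with an offset of 16, quantile-normalised and log2-transformed (limma 3.58.1, R 4.3.3). Probes detected at p under 0.01 on at least 2 arrays were kept (24352 of 45281), and 20146 of these named 1 gene. The probe with the highest mean signal stood for each of 12002 genes. Linear models with 1 mean per group were fitted to all 18 arrays with moderated tests and Benjamini-Hochberg adjustment over all genes, all two-sided. Other kept probes were tested over 24352 probes. The script was tested on simulated data.

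Every measured kinesin is named, with statistics for those called, and up to 4 partner and mitosis genes by size of the difference between HC and ENHC. The kinesins, classes and gene lists were chosen with earlier results of these data known. Whether replicate numbers pair arrays was checked by correlating the deviations of same-numbered arrays from their group means. Every pair exceeded 0.1 for HC against ENHC (0.122 to 0.505) and ENHC against NEC (0.264 to 0.429). The same held for ENHC by organ (0.340 to 0.499) and NEC by organ (0.308 to 0.409). It did not hold for HC against NEC and HC by organ. The main fit nonetheless carried no replicate term in any comparison, and the block was run as an alternative. All p-values are from the main fit unless another setting is named. The sources used here do not state what a number marks, and file headers name no chip or scan batch.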

Additional observations from a re-analysis of the deposited data

Results flagged for a closer look

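In 2 kinesins the difference between HC and ENHC was itself different in the organs by the test of that difference. For Kif21b, the log2 difference of HC minus ENHC in the cochlea less that in the vestibular system was 3.40 ± 0.51 (limma, adjusted p = 0.000155). For Kif9 the same quantity was -1.56 ± 0.28 (limma, adjusted p = 0.000992), with Kif9 undetected on all ENHC arrays and a second probe not called.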

How the results depend on the processing

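Of 75 gene results tried under 27 alternatives, 63 kept their call in all, 12 lost it in some and 0 reversed. With replicate numbers as a block, the count of kinesins called was 7 between cochlear and vestibular HC (4 without the block, with Kif1c, Kif21a and Kif5b added), 5 between cochlear and vestibular ENHC (0 without) and 4 for the difference by organ (2 without, with Kif22 at adjusted p = 0.00267 and Kif3c at 0.00861 added). The block also added Kif20a in HC against NEC (adjusted p = 0.00272), Kif20a (0.0141) and Kif2a (0.0479) in vestibular HC against ENHC, for 11 calls against 9, and Kif4 (0.0263) in NEC by organ, for 5 against 4. Those it added in HC against ENHC, ENHC against NEC and ENHC by organ stand with their comparisons, and it ended no call. With only the compared arrays in the fit, 1 kinesin was called between ENHC of the organs (Kif5a) and 2 between NEC of the organs, where Kif21b (0.0917) and Kif5c (0.0711) were lost, as was cochlear Kif5c against ENHC (0.0598). With no detection filter Kif1a in ENHC against NEC (0.0514) and Kif21b in NEC by organ (0.0976) were lost. Leaving out 1 array at a time gave 16 to 17 calls for HC against ENHC, 17 to 18 for HC against NEC and 10 to 13 for ENHC against NEC. It gave 8 to 12 for cochlear and 9 to 11 for vestibular HC against ENHC, 3 to 6 for HC, 0 to 2 for ENHC and 1 to 5 for NEC by organ, 2 to 4 for the difference by organ, and 19 to 20 in the F test. The difference by organ reached 4 calls without vestibular HC replicate 3, adding Kif3c and Kif5a. The causes were not tested. Median scaling moved the median of all genes by over 0.1 in vestibular HC against ENHC (to 0.13, against -0.03), HC against ENHC (0.08, against -0.03), HC against NEC (0.11, against 0.00), ENHC by organ (0.16, against 0.03) and the difference by organ (-0.15, against -0.03). A chip or scan block was not run, since the headers name none. Genes near the detection limit, such as Kif26a and Kif17, have the least certain values.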
